A study of Homo sapiens with 12 samples.

Results

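Cells lacking MBD2 and still held in expansion medium were set against control cells that had already been taken through erythroid differentiation, to ask which genes of red cell maturation the knockout expressed at or above the level of the differentiated control and which it did not. The members are 6 of the 12 RNA-seq libraries of the series: the 3 libraries of undifferentiated MBD2-/- cells and the 3 libraries of differentiated cells that carried a scrambled guide (sgSCR, labelled WT). Every difference below is undifferentiated knockout minus differentiated control. The other 6 libraries, 3 of undifferentiated control and 3 of differentiated knockout, enter as reference levels and in the estimate of spread.

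All libraries came from HUDEP-2, an immortalised line of erythroid progenitors from human umbilical cord blood that makes mostly adult hemoglobin. The undifferentiated knockout cells grew in StemSpan SFEM II with stem cell factor, erythropoietin, dexamethasone, doxycycline and glutamine, and are labelled as early basophilic erythroblasts. The differentiated control cells grew in IMDM with human AB serum, erythropoietin, doxycycline, insulin, heparin, holo-transferrin and glutamine, and are labelled as late basophilic erythroblasts. Differentiation lasted 3 days by the RNA extraction protocol and 5 days by the growth protocol. Genotype, stage and medium all differ between these groups, so their parts in any difference cannot be told apart. Whether the knockout cells are a single clone, and whether replicates were separate cultures, is not given in the sources used here, so the p-values measure the spread between these libraries, which may be technical.

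MBD2 is a protein that binds methylated CpG dinucleotides and brings the NuRD complex, a chromatin remodeler and histone deacetylase, to them. In adult erythroid cells the complex takes part in keeping the fetal gamma-globin genes silent. As erythroblasts mature they build hemoglobin and the heme and iron pathways that feed it, lay down the spectrin skeleton and surface antigens, and begin to clear organelles, while the progenitor program and the cell cycle wind down.

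MBD2 itself (ENSG00000134046.10, chr18:54151601-54224788, minus strand, hg38) stood at 22.7, 19.8 and 24.5 CPM (normalised read counts, scaled by TMM to a common library total) in the undifferentiated knockout libraries and at 61.4, 59.1 and 58.2 in the differentiated control libraries. The groups did not overlap, and the log2 difference was -1.41 ± 0.08 (SE; edgeR adjusted p = 7.2e-10). The remaining MBD2 reads cannot be placed relative to the edited site, which is not given in the sources used here. Total counts over the 12 libraries ran from 7667997 to 14047498, and from 9450884 to 13705360 over the 6 compared here. Of 17175 genes with enough reads to test, 4266 were called higher in the undifferentiated knockout (24.8%) and 3924 lower (22.8%) at an adjusted p under 0.05, and the CPM values of the groups did not overlap for 9340 genes (54.4%). The median log2 difference of all genes was -0.0014. Knockout replicate 2 stood apart from its partners: the scaled chi-square per degree of freedom was 20.6 and 17.5 against replicates 1 and 3, which differed from each other by 5.74. Such spread was not particular to this group. The largest value of a pair was 20.5 in the undifferentiated control, 14.4 in the differentiated control and 21.5 in the differentiated knockout.

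In all, 10 lists of maturation genes held 156 members, of which 153 could be tested; HBE1, ICAM4 and BCAM had too few reads. In the undifferentiated knockout 56 of the 153 were called higher (36.6%), 55 were called lower (35.95%) and 42 were called neither way. Among all genes tested the shares were 24.8% higher, 22.8% lower and 52.3% neither, and among the 11652 protein-coding ones 31.6% were higher and 23.8% lower. The calls of each single list below are to be set beside these shares. A gene was counted as at or above the differentiated control when it was called higher, or when the 95% interval of its log2 difference stayed above a 1.5-fold deficit. By this rule 114 of the 153 members were at or above (74.5%), beside 65.1% of all genes and 75.8% of protein-coding genes tested. Of these 114, 17 were nonetheless called lower, by less than 1.5-fold. Intervals lay wholly within 1.5-fold on either side for 77 of the 153 members, 37.9% of all genes and 5617 of the 11652 protein-coding ones. Beyond that margin 12 members were lower and 19 higher, beside 1113 and 1084 of the 17175 genes and 722 and 960 of the protein-coding ones. Groups did not overlap for 115 members, 54.4% of all genes and 7223 of the 11652 protein-coding ones. The median difference of the members was -0.03. Of the 111 calls, 25 were lost when any 1 of the 6 libraries was left out; those losses are given beside each gene named.

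**Figure D1:**
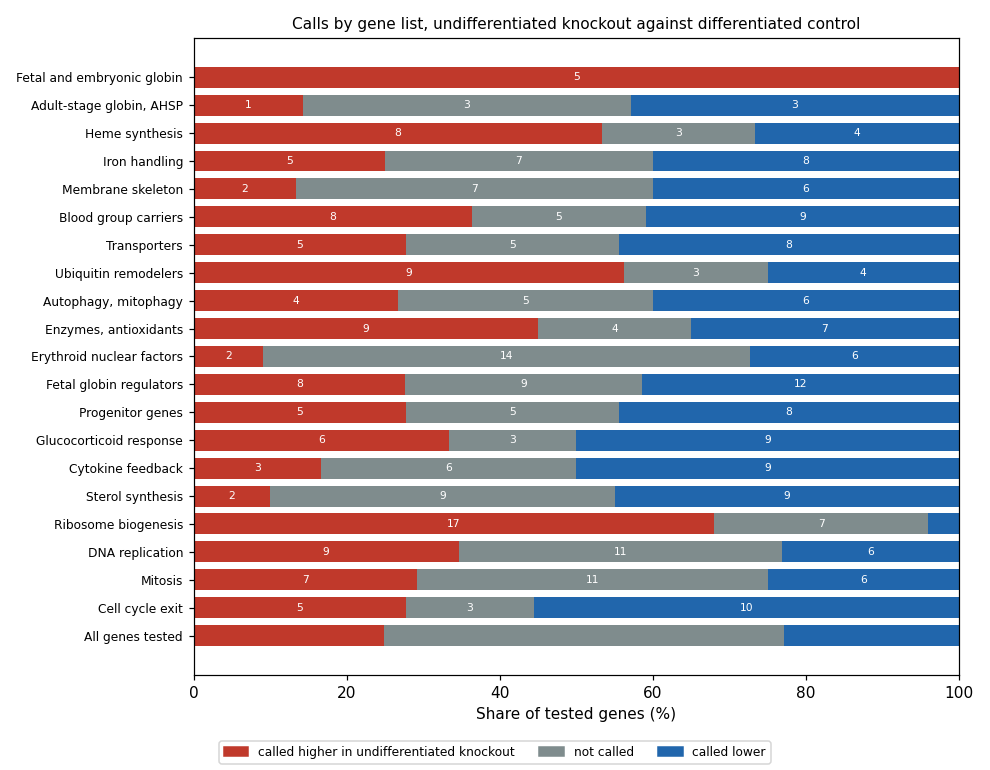
Share of tested genes in each list (%) that were called higher in the undifferentiated knockout, not called, or called lower against the differentiated control, with the number of genes printed in the bars; the lowest bar gives all 17175 genes. All 5 fetal and embryonic globin genes that passed the filter on low counts and 17 of 25 ribosome biogenesis genes were called higher. Iron handling, transporters and cell cycle exit had more lower than higher calls.

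Promoter sequences are shown for 4 genes that stand for the outcomes met below, one far above the differentiated control (TRIM10), one above it in heme synthesis (CPOX), one nearly level with it (ALAS2) and one far below it (KCNN4). Each is the 250 bases before the transcription start, 5′ to 3′ on the strand of the gene, from RefSeq on GRCh38.p14; capitals mark matches on either strand to AGATAA, which erythroid zinc-finger factors such as GATA1 recognise, or to CCNCNCCC, the kind of motif that KLF1 binds, with overlapping matches counted.
TRIM10: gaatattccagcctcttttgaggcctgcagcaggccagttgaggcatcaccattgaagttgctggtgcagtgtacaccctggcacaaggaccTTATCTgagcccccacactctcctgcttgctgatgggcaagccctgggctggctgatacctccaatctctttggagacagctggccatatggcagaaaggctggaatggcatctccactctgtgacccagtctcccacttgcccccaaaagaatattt
CPOX: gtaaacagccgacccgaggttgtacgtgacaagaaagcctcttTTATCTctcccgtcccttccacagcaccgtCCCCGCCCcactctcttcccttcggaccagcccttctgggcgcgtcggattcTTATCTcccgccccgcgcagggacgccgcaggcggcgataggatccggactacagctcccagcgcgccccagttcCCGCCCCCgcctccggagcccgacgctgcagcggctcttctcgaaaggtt
ALAS2: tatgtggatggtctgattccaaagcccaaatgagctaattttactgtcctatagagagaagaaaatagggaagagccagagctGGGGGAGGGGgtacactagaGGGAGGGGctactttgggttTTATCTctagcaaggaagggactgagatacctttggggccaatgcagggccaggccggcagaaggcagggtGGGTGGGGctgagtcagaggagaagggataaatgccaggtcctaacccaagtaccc
KCNN4: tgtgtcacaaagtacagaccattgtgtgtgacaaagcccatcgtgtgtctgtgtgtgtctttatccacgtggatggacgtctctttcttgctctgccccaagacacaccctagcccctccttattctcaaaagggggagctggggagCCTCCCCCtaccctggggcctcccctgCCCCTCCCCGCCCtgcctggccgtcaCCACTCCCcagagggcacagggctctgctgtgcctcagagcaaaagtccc
They lie at chr6:30161212-30161461, chr3:98593612-98593861, chrX:55030978-55031227 and chr19:43780974-43781223, all on the minus strand. These RefSeq starts differ from the bounds of the genes as counted. The KCNN4 window lies inside its counted gene, the CPOX and ALAS2 windows lie inside theirs in part, and the TRIM10 window lies beyond its own. The TRIM10 window holds 0 CpG dinucleotides, the sites MBD2 reads when they are methylated, CPOX 27, ALAS2 1 and KCNN4 5; the median was 11 over the 27305 promoters of the table and 21 over the 9290 of them that belong to tested protein-coding genes. Matches to AGATAA number 1 in TRIM10, 2 in CPOX, 1 in ALAS2 and 0 in KCNN4, and 9.37% of all promoters and 4.34% of those of tested protein-coding genes hold at least 1. Matches to CCNCNCCC number 0, 2, 4 and 4 in the same order, and 52.4% and 70.5% of the same promoters hold at least 1. Methylation and factor binding were not measured here. Of the protein-coding maturation genes, 37 of 53 called higher, 29 of 42 called neither way and 46 of 55 called lower had a promoter in the table; with this many missing, promoters were not compared between calls.

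Of the maturation lists, fetal and embryonic globins had the highest median difference, 2.65. Of 6 listed genes 5 could be tested, and all 5 were called higher. HBE1, not tested, had 1 count in the undifferentiated knockout and 2 in the differentiated control. Genes near 0 in both control groups, as HBG1 and HBZ were, pass the filter on low counts only through the knockout groups, where they are read. HBG2, a fetal gamma-globin gene (ENSG00000196565.11, chr11:5248274-5645789, minus strand), was at 6.06, 20.6 and 6.33 CPM in the undifferentiated knockout and at 1.41, 1.09 and 1.89 CPM in the differentiated control. The lowest knockout library was above the highest control library, and replicate 2 of the knockout stood above the other two. The fitted difference was 7.57-fold (95% interval 3.38 to 16.9; edgeR adjusted p = 3.3e-04), and without that replicate it was 2.12 on the log2 scale in place of 2.92. Its near-identical neighbour HBG1 had 34 counts over the 3 knockout libraries and 7 over the 3 control libraries, a ratio of 4.57 (exact 95% interval 2.00 to 12.2, counting error only), and its log2 difference of 2.12 became 2.75 without control replicate 1. Reads shared between these copies cannot be assigned with certainty. HBZ, the embryonic zeta-globin, had 79 counts against 9 (ratio 8.27, 4.14 to 18.7). Exonic bases that overlap another gene number 1187 of 2241 in HBG2, 580 of 808 in HBG1 and 205 of 755 in HBZ, so their counts are uncertain. The transcripts HBBP1 and BGLT3, which lie between the gamma- and delta-globin genes, were higher by 2.65 ± 0.41 and 2.28 ± 0.22 on the log2 scale. BGLT3 was the steadiest of the group, at 5.70, 6.02 and 5.88 CPM against 1.13, 1.53 and 0.842. Undifferentiated control cells held a mean of 1.07 CPM of HBG2 and differentiated knockout cells 52.9 CPM.

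Adult-stage globins gave no such separation. The alpha-globin gene HBA2 had 4670, 1076 and 3582 CPM in the undifferentiated knockout and 1167, 642 and 2468 in the differentiated control, and the groups overlapped. HBA2, HBA1 and HBB had log2 differences of 1.13, 0.94 and 0.95, with intervals that ran from below 0 to above 2, and none was called. Without control replicate 3, HBA2 moved to 1.78 and HBA1 to 1.59. The library kit removes globin mRNA, so these values are what depletion left: globin genes took 0.143% to 0.579% of counts in the knockout libraries and 0.0834% to 0.311% in the control libraries. The part of depletion in the globin differences was not tested. Knockout replicate 2 had the lowest HBA2 and HBB of its group and the highest HBG2, HBZ, HBBP1 and HBM. HBM, the mu-globin gene, was called higher (0.95) but not without that replicate (0.40, edgeR adjusted p = 0.18) or without control replicate 3. Of its 916 exonic bases 410 overlap another gene. HBD, the delta-globin gene, was at 1.01, 0.718 and 0.271 CPM against 1.69, 2.62 and 1.37, lower by a log2 difference of -1.48, and lost its call without control replicate 2 (edgeR adjusted p = 0.074). HBQ1, the theta-globin gene, was called lower (-0.63), and leaving out any of 3 libraries ended that call. AHSP, the chaperone of free alpha-globin, was lower at 157, 167 and 154 CPM against 233, 256 and 222 (log2 difference -0.57 ± 0.07, edgeR adjusted p = 2.2e-06).

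**Figure D2:**
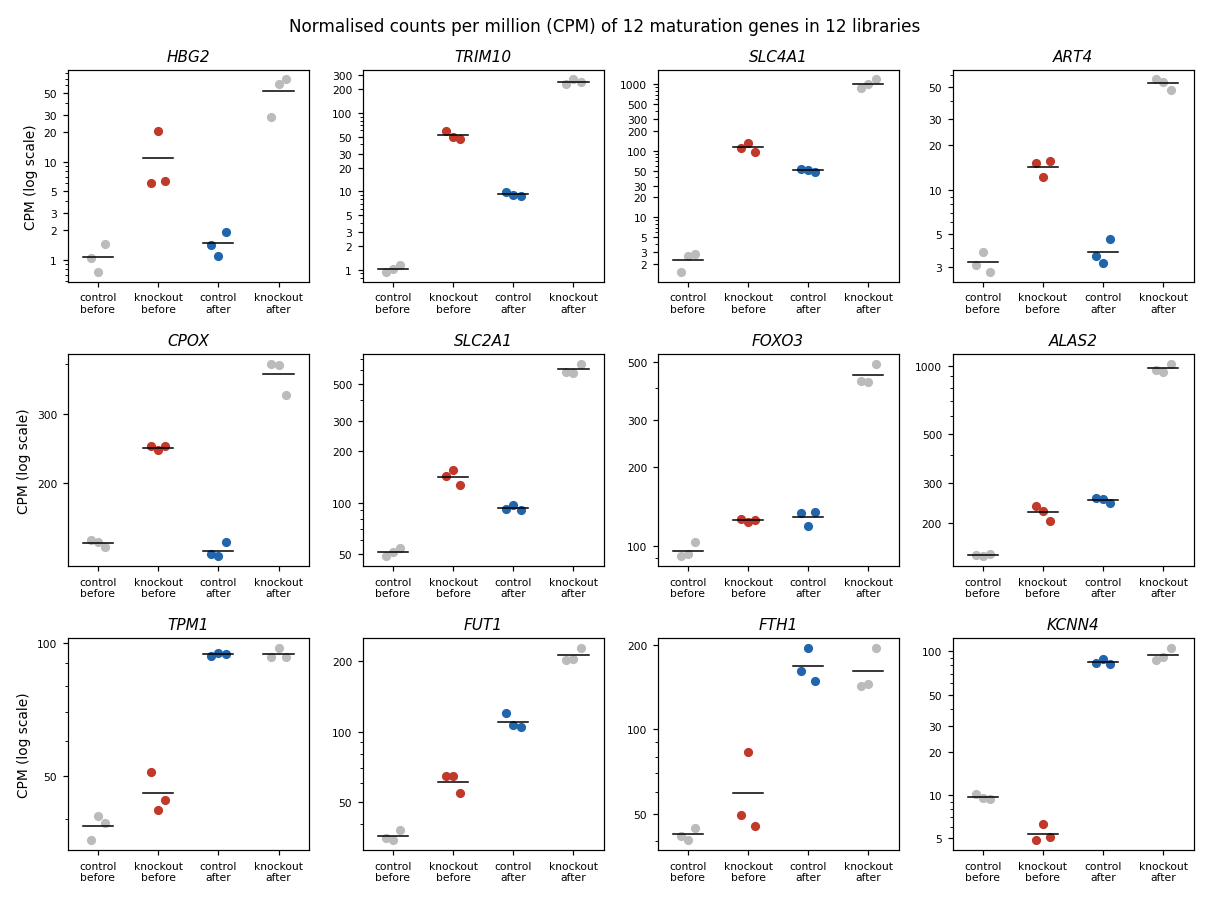
CPM on a log axis of 12 maturation genes in each of the 12 libraries, with a line at the mean of 3 libraries; red points are undifferentiated knockout and blue points differentiated control, and grey points are the other groups. TRIM10, SLC4A1, ART4 and CPOX sit higher in red than in blue, FOXO3 overlaps, and TPM1, FUT1, FTH1 and KCNN4 sit lower in red.

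All 15 enzymes and carriers of heme synthesis met the at-or-above rule, as did 75.8% of protein-coding genes tested. Of the 15, 8 were called higher, 4 lower and 3 neither, and the median difference was 0.29. CPOX, the coproporphyrinogen oxidase (ENSG00000080819.5, chr3:98521132-98593723), stood at 247, 242 and 248 CPM against 132, 130 and 141, which is 1.83-fold higher (95% interval 1.65 to 2.03; edgeR adjusted p = 4.5e-08). Control cells held 140 CPM of CPOX before differentiation and 134 after it, so the knockout excess was present against both. FAM210B, a mitochondrial protein of heme synthesis, had 234, 223 and 211 CPM against 140, 140 and 141, and again both control stages had a mean of 140. ABCB6, a porphyrin transporter, was higher by 1.54 ± 0.15, but 2837 of its 5205 exonic bases overlap another gene, so its counts are uncertain. UROD, ABCB10, CLPX and PPOX were higher by 0.29 to 0.43 on the log2 scale. ALAS2, the first and rate-setting erythroid enzyme, was at 237, 226 and 204 CPM against 256, 254 and 245, a log2 difference of -0.18 ± 0.07. That call was lost without knockout replicate 3 or without control replicate 1 or 2. It was also lost with library sizes alone (edgeR adjusted p = 0.073), with no filter on low counts (0.21) and with the 6 libraries alone (0.065), and its interval (-0.32 to -0.04) lay within 1.5-fold. FECH, the ferrochelatase that inserts the iron, was lower at 201, 210 and 192 CPM against 267, 251 and 248. SLC25A38, the mitochondrial glycine carrier, was called lower by -0.29, a call lost without knockout replicate 3 or control replicate 2, and TMEM14C, which moves protoporphyrinogen, was lower by -0.26. ALAD and UROS were called neither way and lay within 1.5-fold. These genes did not all rise with differentiation of control cells. Control means before and after it were 143 and 252 CPM for ALAS2 and 168 and 255 for FECH. For CLPX they were 109 and 86.6, for ALAD 105 and 91.4, and for ABCB6 8.12 and 4.83. FECH lies on chromosome 18, which also carries MBD2. Of 265 tested genes on it 17 were called higher (6.4%) and 137 lower (51.7%), with a median of -0.48. Among all genes tested 24.8% were higher and 22.8% lower. The part of this chromosome-wide difference in FECH, SLC14A1 and RIOK3 was not tested.

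Iron genes were divided. Of 20 members, 5 were called higher (25%) and 8 lower (40%). At or above were 14 (70%), of which 2 were called lower. Among all genes tested 24.8% were higher, 22.8% lower and 65.1% at or above, and 75.8% of protein-coding ones were at or above. ACO1, the cytosolic aconitase that doubles as an iron sensor, stood at 80.3, 90.4 and 87.8 CPM against 40.9, 44.3 and 41.6, but undifferentiated control cells already held 76.0 CPM. NCOA4, the ferritin-clearing receptor, was at 347, 331 and 351 against 197, 209 and 205 (log2 difference 0.75 ± 0.06, edgeR adjusted p = 7.2e-08), with 251 in the undifferentiated control. FTH1, the ferritin heavy chain, was at 49.6, 83.0 and 45.3 CPM against 161, 195 and 149, 2.85-fold lower (edgeR adjusted p = 2.2e-06), although 1267 of its 2030 exonic bases overlap another gene. FTL, the light chain, was lower by -0.47, the iron exporter SLC40A1 by -0.54, and the heme oxygenase HMOX1 by -1.07. SLC48A1, a lysosomal heme transporter, was at 9.96, 11.8 and 8.69 CPM against 25.5, 29.9 and 26.2, close to the 8.00 of undifferentiated control cells. SLC25A37, the mitochondrial iron importer mitoferrin-1, had 837, 903 and 749 CPM against 952, 957 and 929. It missed the threshold (log2 difference -0.19 ± 0.08, edgeR adjusted p = 0.058) and was called lower without knockout replicate 2 (-0.25, edgeR adjusted p = 0.015), while undifferentiated control cells held 377 CPM. TFRC, the transferrin receptor, was at 6605 CPM on average against 6817 and was called neither way.

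Among membrane and skeleton genes 2 of 15 were called higher, 6 lower and 7 neither. SLC4A1 (ENSG00000004939.12, chr17:44248385-44268141, minus strand) encodes band 3, the anion exchanger that anchors the skeleton. It stood at 112, 131 and 96.3 CPM in the undifferentiated knockout and at 54.2, 51.4 and 47.5 in the differentiated control, from a mean of 2.30 in the undifferentiated control and against 1024 in the differentiated knockout. The knockout was 2.22-fold higher (95% interval 1.85 to 2.67; edgeR adjusted p = 1.2e-06). TPM1, a tropomyosin of the junctional complex, went the other way, at 51.0, 41.8 and 44.2 CPM against 93.6, 95 and 94.6. TMOD1, which caps actin there, was lower by -0.53 and the adducin ADD3 by -0.43. EPB41 (protein 4.1), EPB42 (protein 4.2), ANK1 (ankyrin) and SPTB (beta-spectrin) were not called, with log2 differences from -0.08 to 0.21. ACTB was higher by 0.81, where the undifferentiated control held 492 CPM, the knockout 488 and the differentiated control 278.

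Of 22 blood group carriers tested, 8 were called higher (36.4%) and 9 lower (40.9%). The group had the smallest share at or above of the maturation lists after the adult globins, 13 of 22 (59.1%). Among all genes tested 65.1% were at or above, and among protein-coding ones 75.8%. ART4, the Dombrock antigen (chr12:14825569-14843495), was at 15.2, 12.2 and 15.6 CPM against 3.56, 3.20 and 4.63, 3.83-fold higher (95% interval 3.04 to 4.83; edgeR adjusted p = 4.5e-08). Control cells held 3.22 CPM of it before differentiation and 3.80 after, a log2 difference of 0.19 that was not called (edgeR adjusted p = 0.45). ABCG2, the Junior antigen and a porphyrin exporter, was at 20.1, 13.6 and 14.1 CPM against 7.97, 6.54 and 6.21. RHAG, the Rh-associated glycoprotein, was higher by 0.67, with 668 CPM in the undifferentiated control, 736 in the knockout and 463 in the differentiated control; RHCE and RHD, near-identical to each other, were higher by 1.07 and 0.83. FUT1, the H-antigen transferase, was at 64.2, 64.1 and 54.6 against 120, 107 and 104. KEL was lower by -0.57, CD59 by -0.54, and SLC14A1, the urea transporter of the Kidd group on chromosome 18, by -1.25. XK and CD55 were called neither way, CD55 becoming a lower call without knockout replicate 3.

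Transporters ranged most widely of the maturation lists, from -3.97 to 1.97 on the log2 scale, with 5 of 18 called higher and 8 lower. KCNN4, the calcium-gated potassium (Gardos) channel (ENSG00000104783.10, chr19:43766533-43781257, minus strand), had 4.84, 6.29 and 5.07 CPM in the undifferentiated knockout and 83.1, 87.7 and 81.4 in the differentiated control. That is 15.6-fold lower (log2 difference -3.97 ± 0.11, edgeR adjusted p = 3.9e-13). KCNN4 was below the 9.65 of undifferentiated control cells as well and reached 94.8 in differentiated knockout cells. The plasma membrane calcium pump ATP2B4 was at 152, 147 and 143 CPM against 308, 284 and 278, and the carnitine-family carrier SLC22A4 at 3.68, 4.13 and 3.98 against 11.4, 11.0 and 11.6. On the higher side, SLC2A1, the glucose transporter GLUT1, stood at 143, 155 and 127 CPM against 92.4, 96.8 and 90.8, from 51.2 in the undifferentiated control. TSPO2, an erythroid cholesterol-binding protein, was at 11.9, 12.6 and 8.96 against 2.53, 3.20 and 2.74, with 6.87 in the undifferentiated control. AQP3, a water and glycerol channel, was higher by 1.95 ± 0.23. Its means were 8.09 CPM in the undifferentiated control, 14.9 in the knockout and 3.72 in the differentiated control. SLC16A1, the lactate carrier MCT1, was higher by 1.18 ± 0.07, but undifferentiated control (593 CPM) and undifferentiated knockout (588) were level (log2 difference -0.01), and the differentiated control held 260.

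**Figure D3:**
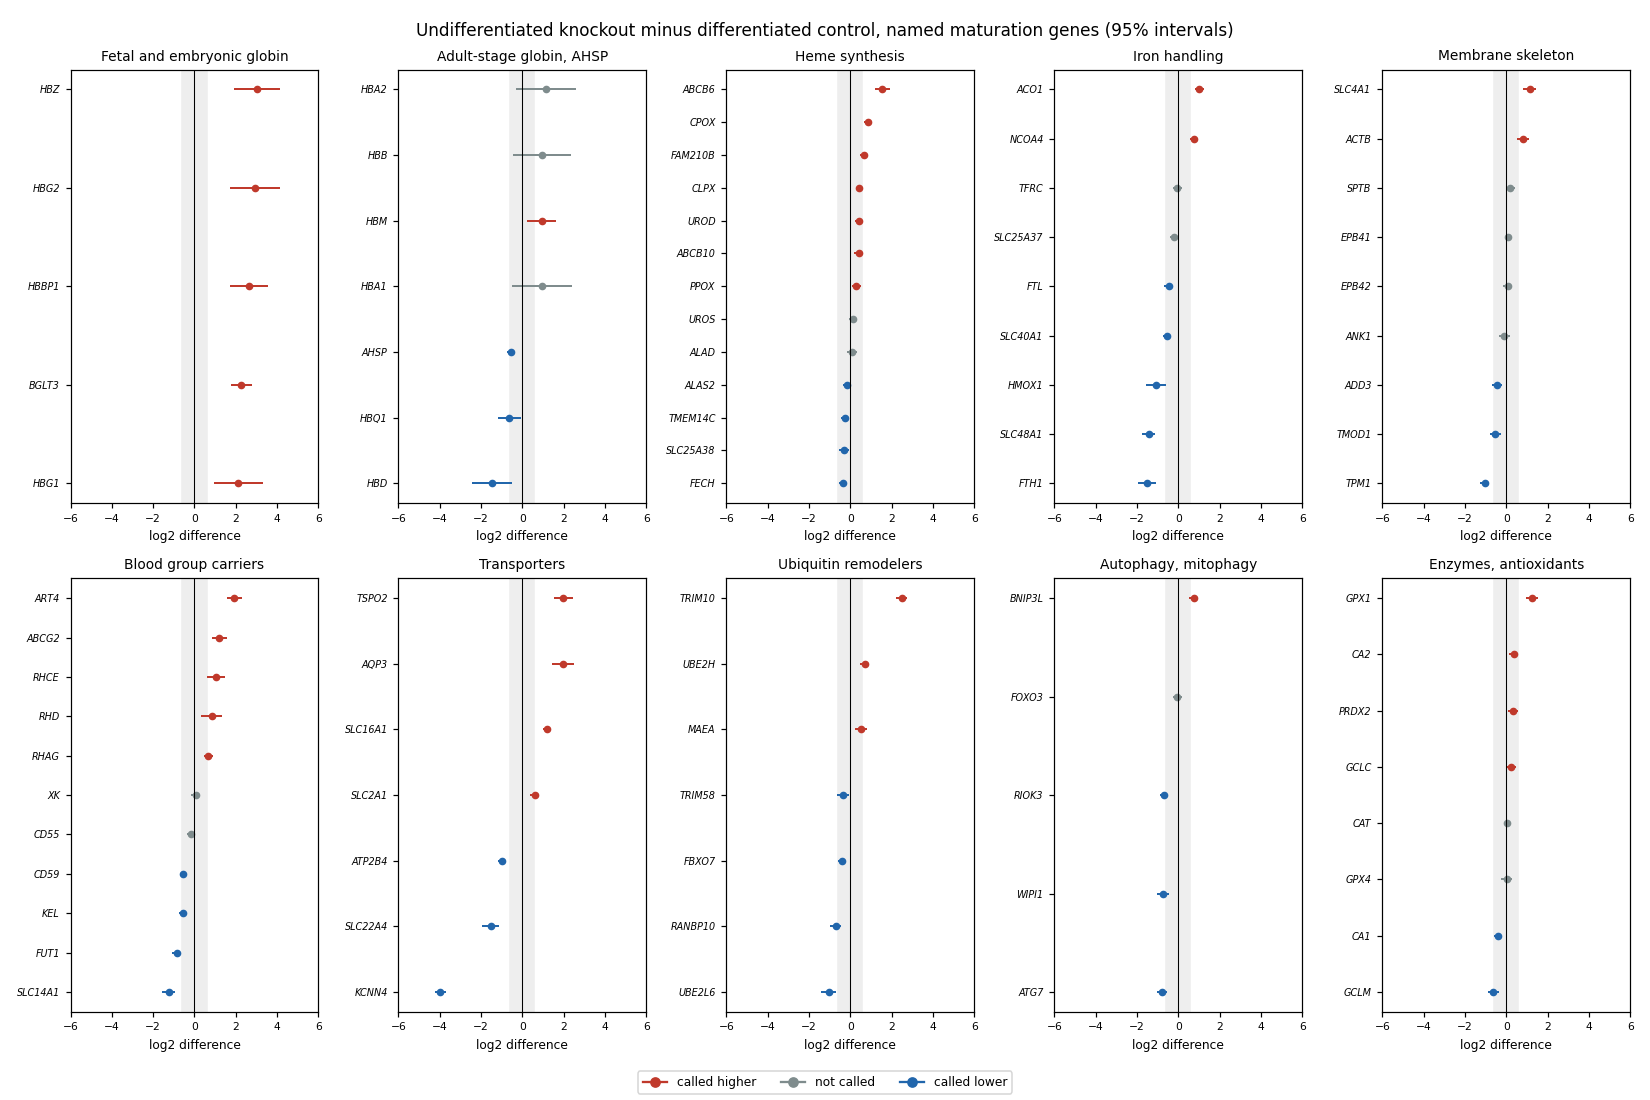
Log2 difference of undifferentiated knockout minus differentiated control for the tested maturation genes named in the text, by list, with 95% intervals; red was called higher, blue lower and grey neither, and the shaded band is 1.5-fold either way. Many heme intervals lie in or right of the band, while KCNN4, TPM1, FTH1 and SLC48A1 lie to its left.

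Genes of protein and organelle clearance went both ways. Of 16 ubiquitin genes 9 were called higher (56.25%) and 4 lower (25%), with a median of 0.25. At or above were 14 (87.5%), of which 2 were called lower. Among all genes tested 65.1% were at or above, and among protein-coding ones 75.8%. TRIM10, an erythroid RING-finger protein (ENSG00000204613.9, chr6:30151945-30160934, minus strand), stood at 59.5, 49.1 and 46.9 CPM against 9.94, 9.01 and 8.84. It was 5.61-fold higher (95% interval 4.83 to 6.51; edgeR adjusted p = 1.7e-11), with 1.03 CPM in the undifferentiated control and 251 in the differentiated knockout. UBE2H, a ubiquitin-conjugating enzyme, was higher by 0.70, and MAEA, part of the CTLH ligase, by 0.50. For MAEA the means were 56.7 CPM in the undifferentiated control, 68.2 in the knockout and 48.1 in the differentiated control. UBE2L6 was at 11.4, 18.1 and 12.8 against 28.3, 28.9 and 29.7 CPM, near the 13.5 of the undifferentiated control. RANBP10 was lower by -0.70 and FBXO7 by -0.42; TRIM58, which acts in enucleation, was lower by -0.34, a call lost without knockout replicate 2 or control replicate 1. In the autophagy list of 15, 4 were called higher (26.7%) and 6 lower (40%), with a median of -0.17. At or above were 12 (80%), of which 3 were called lower. BNIP3L, the receptor that directs mitochondrial clearance in reticulocytes, had 777, 680 and 771 CPM against 441, 414 and 472, where undifferentiated control cells held 835 CPM. FOXO3, a driver of autophagy genes, was at 126.5, 123.4 and 125.7 CPM against 133, 119 and 135 and lay within 1.5-fold (interval -0.20 to 0.12). ATG7 was lower by -0.79, WIPI1 by -0.73 and RIOK3, on chromosome 18, by -0.70.

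Red cell enzymes and antioxidants were called higher for 9 of 20 and lower for 7. Intervals lay within 1.5-fold for 14, beside 5617 of the 11652 protein-coding genes tested. GPX1, the main glutathione peroxidase, was at 82.1, 106 and 79.6 CPM against 34.0, 39.7 and 37.5, 2.41-fold higher (edgeR adjusted p = 1.5e-07), with 69.5 CPM in the undifferentiated control. The peroxiredoxin PRDX2 was at 221, 266 and 212 against 179, 195 and 178, from 112 in the undifferentiated control. Carbonic anhydrase CA2 was higher by 0.36 and CA1 lower by -0.38. GCLM, the regulatory subunit of glutathione synthesis, was lower by -0.62 and GCLC, its catalytic partner, higher by 0.25. CAT and GPX4 were called neither way.

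Erythroid transcription factors had the largest share of uncalled genes among the maturation, regulator, medium and growth lists. Of 22, 14 were called neither way, beside 52.3% of all genes tested. Intervals lay within 1.5-fold for 17, beside 37.9% of all genes and 5617 of the 11652 protein-coding ones. All 14 uncalled members had such intervals, as did 4518 of the 8985 uncalled genes of the whole table. GATA1 was at 61.7, 84.1 and 65.4 CPM against 73.0, 78.0 and 76.0, and KLF1 at 396, 412 and 357 against 440, 434 and 421, a difference of -0.15 with an interval from -0.31 to 0.01. NFE2 stood at 106 CPM on average against 108. ZFPM1, the GATA1 partner FOG1, was an exception at 7.80, 7.99 and 7.33 CPM against 20.2, 21.1 and 16.9, 2.53-fold lower (edgeR adjusted p = 2.6e-07). NFIA was lower by -0.84 and MAFG by -0.66. E2F2 and KLF13 were called higher, by 0.41 and 0.36.

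Regulators of fetal globin and subunits of NuRD gave 8 higher and 12 lower calls of 29 (27.6% and 41.4%). Among all genes tested 24.8% were higher and 22.8% lower. LIN28B, the fetal-stage RNA-binding protein, had 187 counts in the undifferentiated knockout and 5 in the differentiated control, a ratio of 35.2 (exact 95% interval 14.8 to 110, counting error only). All 3 knockout libraries were higher, at 5.20, 4.13 and 6.24 CPM against 0.281, 0.0727 and 0.105; its log2 difference of 5.03 became 5.73 without control replicate 1. BCL11A, the gamma-globin repressor, was lower at 23.0, 19.5 and 21.8 CPM against 31.1, 23.9 and 32.3 (-0.43 ± 0.11, edgeR adjusted p = 0.0037). ZBTB7A, the other direct repressor, was lower by -0.45 and SOX6 by -0.38. For BCL11A and ZBTB7A the knockout means of 21.4 and 22.8 CPM sat near the 19.9 and 19.6 of undifferentiated control cells, whereas SOX6 was at 18.4, 14.9 and 14.7 CPM, from 4.67. RCOR1, the corepressor CoREST, was at 51.5, 44.0 and 46.6 against 118, 107 and 100. Its enzyme partner KDM1A was higher at 469, 407 and 469 against 272, 281 and 282. Undifferentiated control cells already held 439 CPM of KDM1A, beside a knockout mean of 448 (log2 difference 0.03). MBD3, which forms NuRD without MBD2, was higher by 0.65, MTA2 by 0.53 and HDAC1 by 0.42. For HDAC1 the mean was 111 CPM in the undifferentiated control, 122 in the knockout and 90.8 in the differentiated control. CHD4, the NuRD remodeler, was called lower by -0.20, a call lost without knockout replicate 3.

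**Figure D4:**
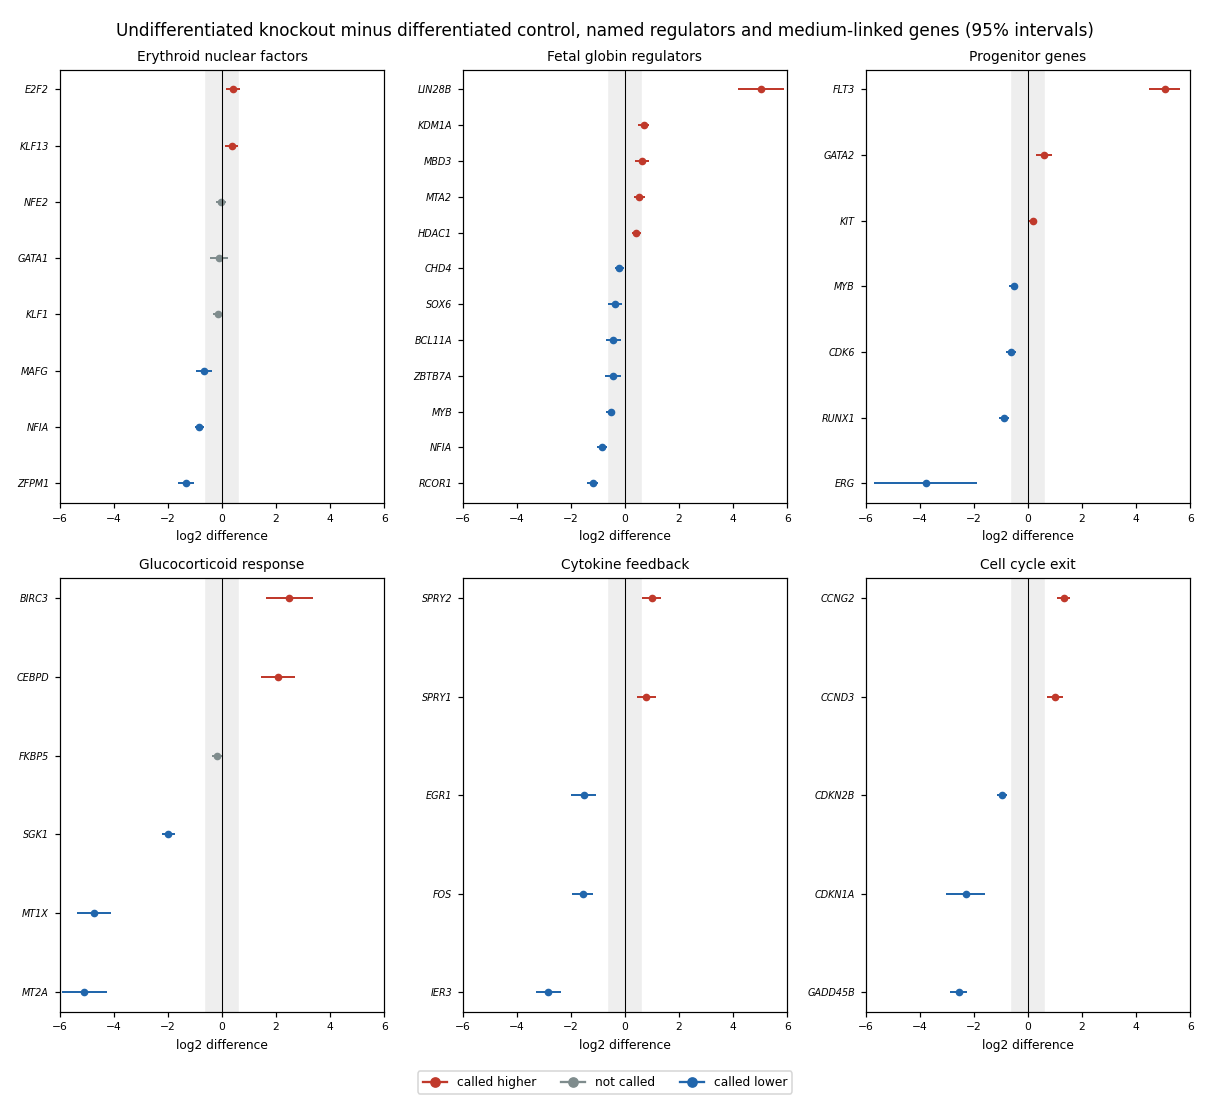
Log2 difference of undifferentiated knockout minus differentiated control with 95% intervals for the genes named in the text among transcription factors, globin regulators, progenitor genes, genes linked to dexamethasone and cytokines in the medium, and cell cycle exit genes; colours and band as for the maturation genes. Erythroid factors crowd the band, LIN28B and FLT3 stand far right, and MT2A, MT1X and GADD45B far left.

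Progenitor genes did not move one way: 5 of 18 tested were called higher (27.8%) and 8 lower (44.4%), with a median of -0.17. Among all genes tested 24.8% were higher and 22.8% lower. FLT3, a receptor of early progenitors, had 331 counts against 9 (ratio 34.6, 18 to 76.4), with 9.15 CPM in the knockout and 4.70 in the undifferentiated control. KIT, the stem cell factor receptor, was higher by 0.18, at 655, 655 and 675 CPM against 589, 578 and 591, and lost its call when 1 of 3 libraries was left out and when the 6 libraries were fitted alone (edgeR adjusted p = 0.059). GATA2 was higher by 0.61, with means of 45.0 CPM in the undifferentiated control, 40.7 in the knockout and 26.5 in the differentiated control. RUNX1 was lower at 46.8, 48.1 and 48.5 CPM against 92.0, 86.5 and 87.5. MYB and CDK6 were lower by -0.53 and -0.62. ERG, found with 1 count in the knockout and 18 in the control, had a ratio of 0.0523 (0.0013 to 0.331 at 95%), and its log2 difference of -3.79 became -5.56 without knockout replicate 2.

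Of 56 genes tied to the medium, 27 were called lower (48.2%) and 11 higher (19.6%), beside 22.8% and 24.8% of all genes tested. Of 18 genes of the glucocorticoid response list, 9 were called lower (50%) and 6 higher (33.3%). Dexamethasone was in the medium of the knockout group and not in that of the control group. MT2A, a metallothionein, had 6 counts against 207 (ratio 0.0273, 0.0099 to 0.0604) and was as low in undifferentiated control cells, at 0.180 CPM. MT1X was lower by -4.74 (-5.43 without knockout replicate 1), and SGK1, a serum- and glucocorticoid-induced kinase, was at 36.2, 27.4 and 29.4 CPM against 120, 124 and 126. FKBP5 was not called. CEBPD and BIRC3 were higher, by 2.07 and 2.48. CEBPD had means of 4.31 CPM in the undifferentiated control, 5.82 in the knockout and 1.34 in the differentiated control. For BIRC3 they were 1.46, 2.70 and 0.480 in the same order. Of 18 cytokine feedback genes 9 were called lower (50%) and 3 higher (16.7%). IER3 was lower by -2.83, FOS by -1.56 and EGR1 by -1.53, while SPRY2 and SPRY1 were higher by 0.98 and 0.79. Only 7 of these 18 were at or above (38.9%), beside 65.1% of all genes tested. That was a smaller share than in any other list except the 2 lymphoid markers.

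Among growth genes, those of ribosome biogenesis stood higher. Of 25, 17 were called higher (68%) and 1, NOP58, lower (4%). FBL, the nucleolar methyltransferase, stood at 301, 390 and 306 CPM against 181, 207 and 184, with 265 in the undifferentiated control. NPM1 and NOP56 were higher by 0.59 and 0.53. Undifferentiated control cells held 798 and 317 CPM of them, beside knockout means of 843 and 376. DNA replication genes gave 9 higher and 6 lower calls of 26 (34.6% and 23.1%), with a median of 0.02. Mitosis genes gave 7 and 6 of 24 (29.2% and 25%), with a median of -0.01. These shares lay near those of all protein-coding genes tested, 31.6% higher and 23.8% lower. Of the replication and mitosis genes, UHRF1 was higher by 0.98 and MKI67 by 0.26, while POLA1 was lower by -0.59 and PRC1 by -0.68. Of 18 genes of cell cycle exit 10 were called lower (55.6%) and 5 higher (27.8%), beside 23.8% and 31.6% of protein-coding genes tested. GADD45B was at 12.1, 11.9 and 7.42 CPM against 60.1, 63.6 and 62.8, and the CDK inhibitors CDKN2B and CDKN1A were lower by -0.96 and -2.29. CCNG2 and CCND3, the latter a cyclin of late erythroblast divisions, were higher by 1.32 and 1.00. CCNG2 had means of 21.9 CPM in the undifferentiated control, 25.4 in the knockout and 10.2 in the differentiated control. For CCND3 they were 52.8, 76.2 and 37.9 in the same order.

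Markers of other blood cells were also measured, since in bulk RNA fewer cells of a type and less RNA per cell cannot be told apart. Erythroid markers GATA1, KLF1, SLC4A1, ALAS2, TFRC and AHSP were present in all 12 libraries. Of 20 neutrophil and monocyte markers 6 could be tested and were higher, but a marker near 0 in the control passes the filter on low counts only through the groups where it is read. CEBPE had 185 counts against 6 (ratio 29, 13.1 to 80.1), and its log2 difference of 4.77 became 5.53 without control replicate 2. Undifferentiated control cells held 143 counts of CEBPE. ELANE had 54 against 4 (12.7, 4.69 to 48.3) and PRTN3 58 against 2 (27.3, 7.23 to 231); CEBPA and LYZ were higher by 3.24 and 3.37. The summed level of all 20 was 33.3 to 42.8 CPM in the knockout and 6.53 to 7.05 CPM in the control. In undifferentiated control cells it was 15.2 to 17.8 CPM. MPO was at 1 and 4 counts, and S100A8, S100A9, CTSG and CAMP were at 0 in the knockout. Mast cell and basophil markers summed to 1166 to 1199 CPM against 973 to 999, and to 1840 to 1908 in undifferentiated control cells. In these sums KIT, named above among progenitor genes, had means of 662 CPM in the knockout, 586 in the differentiated control and 741 in the undifferentiated control. HPGD had 85.5, 50.9 and 539 in the same order, and ENPP3 180, 118 and 185. Of the 11 tested, 7 were higher, led by CPA3 at 232 counts against 6 (36.4, 16.5 to 100), and 3 were lower. Undifferentiated control cells held 336 counts of CPA3. Megakaryocyte markers summed to 63.9 to 91.0 CPM against 35.3 to 38.5, and to 44.8 to 51.0 in undifferentiated control cells. Of the 5 tested, 2 were called higher, 1 lower and 2 neither way. ITGA2B was higher by 1.94, at a mean of 43.1 CPM in the knockout, and LTBP1 was lower by -0.47. PF4, PPBP and GP1BB were at 0 in the knockout. The 2 lymphoid markers tested had log2 differences of -0.42 and -0.51 and were not called, and the sums were 2.17 to 2.89 against 3.56 to 4.13. The part of these markers in the differences of the maturation genes was not tested.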

How the data were processed

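RNA was sequenced from 12 HUDEP-2 libraries, 3 in each of 4 groups, with a stranded total RNA kit that depletes rRNA and globin transcripts, per the labels' protocols. The authors deposited 1 table of raw, unnormalised counts for 60483 genes. Per the file headers, read pairs were counted over exons with featureCounts 1.4.6-p4 in GENCODE 22 on hg38 with no strand option, so antisense and overlapping genes are uncertain; the submitters' processing notes list featureCounts 1.2.6, Subread 1.6.2, edgeR 3.18.1, FastQC and Trimmomatic. Coordinates are those of the table, and symbols were joined by identifier from GENCODE 29 (56753 matched, 3730 did not).

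Genes passing filterByExpr (17175) were fitted over all 12 libraries with edgeR 4.0.16 (R 4.3.3, limma 3.58.1), group means, TMM scaling and the two-sided quasi-likelihood test, and p-values were adjusted by Benjamini-Hochberg over all of them and called under 0.05. SE is the absolute log2 difference over the root of F, and intervals are 95%. CPM is TMM-scaled. An exact permutation test of 3 against 3 libraries cannot go below p = 0.1. Per-gene ratios of low counts have exact intervals. The fit was tested on simulated data.

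The members and gene lists were chosen with earlier results of these data known. Named genes are MBD2, the tested globins, the 8 largest called changes each way among well-measured protein-coding genes, the members of each list with the smallest adjusted p (up to 4 each way in maturation lists, with up to 2 uncalled members of narrowest interval, and up to 3 each way elsewhere), and BCL11A, ZBTB7A, SOX6, LIN28B, KLF1, GATA1 and KIT; further list members were named after their values were seen. Alternatives were DESeq2 1.42.0 (Wald test, or its size factors), library sizes alone, no filter, the 6 libraries alone, a replicate block, removal of ribosomal, mitochondrial and globin genes, a narrower and a 2-fold margin, and leaving out each library. Some genes that this rule names are not reported here.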

Additional observations from a re-analysis of the deposited data

How the results depend on the processing

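No result turned direction and no count moved by over 1.5 times in the settings run. Against 4266 genes higher and 3924 lower, DESeq2's Wald test gave 3955 and 3405, its size factors 4281 and 3903, library sizes alone 4477 and 3636, no filter 4488 and 3894, the 6 libraries alone 3984 and 3603, and removal of ribosomal, mitochondrial and globin genes 4265 and 3928. With 1 library left out at a time the counts ran from 3695 to 4044 higher and from 3417 to 3728 lower, maturation members at or above from 106 to 113, those called higher from 47 to 53 and those called lower from 45 to 62, and MBD2 from -1.48 to -1.33. With a narrower margin 80 of the maturation members counted as at or above, and with a 2-fold margin 138, against 114. Of 179 named genes 13 changed a call in some setting, and 8 of the 158 called lost theirs. Without a filter on low counts HBA1, HBA2 and HBB became called, with the same direction; the cause was not tested. At these depths the low-count genes ERG, HBG1 and PRTN3 are known only to the width of the intervals given.

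The replicate block gave 4509 genes higher and 4169 lower. Same-numbered libraries of the 2 groups had deviations that correlated at -0.006, 0.352 and 0.317, and 4 of 6 libraries correlated best with their own number, so the numbers were not taken as pairs. Among named genes the block changed 1 call, SLC25A37, which became lower (edgeR adjusted p = 0.046).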

Other observations

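Some of the largest differences lay outside the lists. Among called protein-coding genes with a mean of at least 2 on the log2 CPM scale, RYR2, a calcium release channel, stood highest at 36.7, 31.4 and 31.7 CPM in the undifferentiated knockout against 1.78, 1.82 and 1.47 in the differentiated control (log2 difference 4.28 ± 0.17, edgeR adjusted p = 1.1e-11); undifferentiated control cells held 2.60 CPM and differentiated knockout cells 25.4. MRC2, MYLK3, ITPRIPL2 and CFD, the complement factor D, likewise had undifferentiated control means of 2.94 to 3.68 CPM and knockout means of 17.5 to 34.8 CPM. ANKRD33B, GPR85 and GDAP1 were as high in undifferentiated control cells, at 26.2, 31.4 and 26.3 CPM against 32.8, 35.1 and 29.4 in the knockout, and stood at 2.15 to 3.27 CPM in the differentiated control.

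On the other side KCTD15 was at 0.433, 0.718 and 0.181 CPM against 23.7, 26.5 and 28.7 (log2 difference -5.85 ± 0.24, edgeR adjusted p = 1.4e-11), below the 7.30 of undifferentiated control cells. OSBPL6 and CFAP161 were also below both control groups. PHGDH and ASS1, enzymes of serine and arginine synthesis, were at 1.15 and 2.43 CPM against 28.8 and 22.2, with undifferentiated control cells at 1.05 and 1.08. SEL1L3 stood at 10.5 CPM against 88.4, with 7.58 in undifferentiated control cells, and APOL6 at 1.65 against 44.9, with 2.75 there. Of 20 sterol synthesis genes 9 were called lower (45%) and 2 higher (10%), beside 22.8% and 24.8% of all genes tested. INSIG1, a feedback regulator of the pathway, was at 112, 131 and 141 CPM against 226, 222 and 228, lower by -0.82. ACAT2 was higher by 0.50, with means of 128 CPM in the undifferentiated control and 129 in the knockout. Mitochondrially encoded genes gave 18 lower calls of 30 (60%) and 0 higher, with a median of -0.63. Among all genes tested 22.8% were lower and 24.8% higher.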
